A study of Mus musculus with 2 samples.

Results

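The nuclear genes for the subunits of oxidative phosphorylation were described in mouse embryonic stem cells (mESCs) of the line iXist-ChrX-Dom, without induction. Members were all genes of the count table whose symbol begins with Nduf, Uqcr, Atp5 or Cox followed by a digit, together with Sdha, Sdhb, Sdhc, Sdhd, Cyc1 and Cycs, leaving out pseudogenes. These were 103 of the 22556 genes in the table. By known role they were 76 structural components (21 catalytic core subunits, 54 accessory subunits and cytochrome c), 19 assembly factors and 8 tissue-restricted isoforms. The 8 isoforms were kept apart from the structural group throughout.

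The female XX line derives from a cross between Mus musculus domesticus (129S) and castaneus, and the promoter of Xist on the domesticus X chromosome had been exchanged for a TetOn promoter. It is 1 clone and is known from the study to carry a recombination on the X chromosome, and the counts used here were not split by allele. No doxycycline was given (0 h), so Xist was not induced. Cells were grown in serum and LIF, on feeders that were removed by pre-plating before collection. The series held 1 group with 2 replicates and no other condition, and the study used these libraries for the level of each gene before induction. Nothing in the labels says that the replicates came from separate cultures, so differences between them may be technical. The p-values below set the counts of these libraries against counting error only and hold no estimate of the spread between cultures.

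Oxidative phosphorylation turns the energy of NADH and succinate into ATP at the inner mitochondrial membrane. Complex I (NADH dehydrogenase) and complex II (succinate dehydrogenase) pass electrons to ubiquinone, complex III hands them to cytochrome c, complex IV (cytochrome c oxidase) reduces oxygen with them, and complex V (ATP synthase) uses the proton gradient built on the way. All complexes but II also contain subunits encoded by mitochondrial DNA, which are not analysed here, so the nuclear genes must supply the rest. Naive mESCs are known to respire as well as to use glycolysis.

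The total depth was 23716499 counts in replicate 1 and 20275749 in replicate 2. Markers fitted ES cells: 11 of 12 ES cell genes lay at 10 TPM (transcripts per 1000000) or more, against 0 of 12 feeder fibroblast genes, 0 of 7 neural precursor genes and 1 of 8 primitive endoderm genes (Dab2). The sample sheet also carries a cell type note on neural precursors, and the defining genes Sox1 and Olig2 were at 0 counts in both libraries. The feeder list summed to 10.5 CPM (counts per 1000000) and 5.92 CPM, in the order of the replicates.

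The members summed to 203811 counts and 122120 counts in replicates 1 and 2. That was 0.859% of replicate 1 (95% Wilson interval 0.856 to 0.863) and 0.602% of replicate 2 (0.599 to 0.606), or 0.731% ± 0.182 (SD, n = 2). These intervals and all limits on a count of 0 hold for counting error alone, as no molecular identifiers were used, and the replicates differed by far more than counting error. The 10 most counted members supplied 56.1% of the member counts in replicate 1 and 55.6% in replicate 2. A few genes thus carried much of the total, and all but 2 of its 103 genes were detected.

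Levels were compared between genes as TPM on exonic length. Counts of genes at 10 TPM and all ranks use the mean of both libraries on that length, unless another scale is named. The median structural subunit lay at 76.4 TPM ± 38.1 (SD of the medians of both libraries, n = 2), or 95.2 TPM and 41.3 TPM in the separate replicates. Over all 14536 genes with at least 10 counts the median was 11.5 TPM. Of the 103 members, 81 (78.6%) reached 10 TPM, against 7539 of all 22556 genes (33.4%). Among the genes with at least 10 counts, 31 of the 103 members lay above the 90th percentile of 159 TPM. At the other end, 24 members lay below the median of those genes, 14 of them structural subunits. The structural subunits thus spread over a wide range. The SD of log2 TPM across them was 2.69, against 2.99 across all genes with at least 10 counts, whereas the median SD of the same gene between replicates was 0.56. The order of the members was close in both libraries (Spearman's rho 0.96 across all 103 members, 2 of them at 0 counts in both). Members share both libraries and are not independent.

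Promoter letters of the factors known to drive this module were read next. NRF1, GABP (an ETS-family factor), YY1 and the estrogen-related receptors (ERR) are known regulators of nuclear respiratory genes, and SP1 and the CCAAT-binding factor NF-Y act on many promoters. Windows from 250 bases before to 50 bases after the annotated start (RefSeq, GRCm38.p6) were found for 84 of the 103 members. Each motif was searched on both strands as a fixed string: CGCATGCG for NRF1, CCGGAAG for GABP/ETS, AAGATGGC for YY1, AAGGTCA for ERR, GGGCGG for SP1 and CCAAT. None of these strings contains another. The stretches below cover the 150 bases before the start. For NRF1, GABP/ETS, YY1 and ERR they come from the member with the highest TPM that has the letters there, and Cycs and the X-linked Ndufb11 were added. All were picked after their values were seen. Capitals mark the strings of those 4 factors, or CCAAT read on the reverse strand (ATTGG) for Ndufb11, and each sequence runs 5′ to 3′ in the direction of the gene.
Atp5j, chr16:84834977-84835126, minus strand: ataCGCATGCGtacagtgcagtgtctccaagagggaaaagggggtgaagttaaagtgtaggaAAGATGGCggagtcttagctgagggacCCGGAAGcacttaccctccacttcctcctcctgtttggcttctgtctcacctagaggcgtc
Cox6b1, chr7:30626115-30626264, minus strand: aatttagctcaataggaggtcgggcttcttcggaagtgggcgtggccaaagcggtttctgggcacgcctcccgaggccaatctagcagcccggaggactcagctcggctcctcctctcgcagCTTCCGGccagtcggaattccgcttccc
Cox20, chr1:178319003-178319152, plus strand: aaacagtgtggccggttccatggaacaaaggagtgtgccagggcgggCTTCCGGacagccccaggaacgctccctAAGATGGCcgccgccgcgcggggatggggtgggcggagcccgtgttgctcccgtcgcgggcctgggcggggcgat
Atp5g3, chr2:73911327-73911476, minus strand: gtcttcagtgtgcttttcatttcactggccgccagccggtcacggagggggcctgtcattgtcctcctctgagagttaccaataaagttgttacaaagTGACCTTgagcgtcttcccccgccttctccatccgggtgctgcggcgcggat
Cycs, chr6:50566570-50566719, minus strand: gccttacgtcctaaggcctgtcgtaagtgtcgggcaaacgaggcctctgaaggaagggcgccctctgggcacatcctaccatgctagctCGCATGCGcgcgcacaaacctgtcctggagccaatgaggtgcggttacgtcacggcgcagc
Ndufb11, chrX:20617620-20617769, minus strand: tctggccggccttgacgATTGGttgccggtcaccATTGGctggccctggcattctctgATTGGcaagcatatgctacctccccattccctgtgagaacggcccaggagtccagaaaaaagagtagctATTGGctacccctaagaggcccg

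Atp5j, coupling factor 6 of ATP synthase, has 2 annotated starts in RefSeq. Before the one inside the gene as the count table spans it, it held NRF1 letters that begin 147 bases upstream, YY1 letters at 88 and GABP/ETS letters at 61. In Cycs the NRF1 letters began 61 bases before the start, and Ndufb11 held the CCAAT letters 4 times. Among the 84 members with a window, 14.3% held the NRF1 letters, against 4.13% of the 10840 windowed genes with at least 10 counts and 2.07% of all 27025 windowed genes. The YY1 letters were in 15.5% of members, 4.77% of genes with at least 10 counts and 3.19% of all. The GABP/ETS letters were in 26.2%, 18.3% and 9.93%, and the ERR letters in 9.52%, 4.13% and 5.38%, in the same order. SP1 letters went the other way against the genes with at least 10 counts (47.6% of members, 67.2% of those genes, 38.2% of all), and CCAAT stood at 44.0%, 43.0% and 41.1%. No motif was found in 12 of the 84 members. A match is a description of letters, not of binding. Members with the NRF1 letters had a median of 45.7 TPM and those without 82.0 TPM, and for YY1 these medians were 51.5 and 82.2 TPM. For GABP/ETS they were 99.9 and 65.5 TPM, for ERR 98.5 and 76.4 TPM, for SP1 105.6 and 54.6 TPM and for CCAAT 81.9 and 70.8 TPM. No direction was shared by all motifs.

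**Figure D1:**
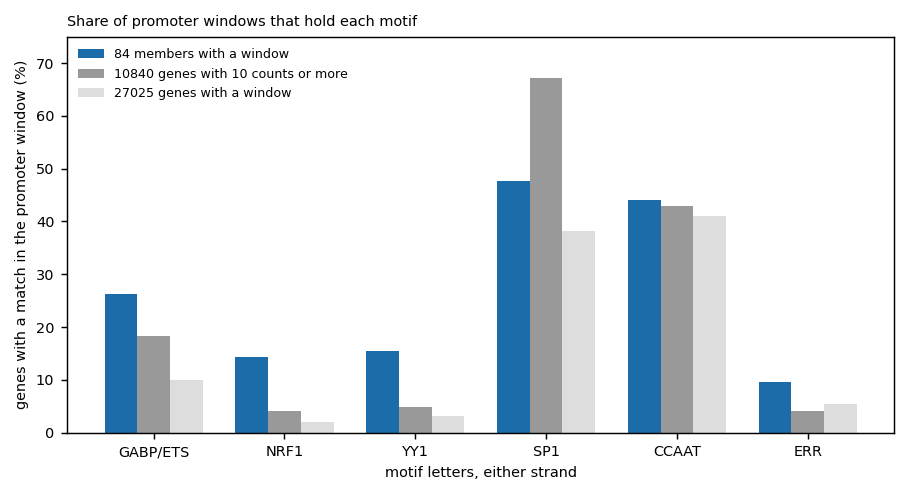
Share of promoter windows (%, 250 bases before to 50 after the start) that hold each motif string on either strand, for 84 members (blue), 10840 genes with at least 10 counts (grey) and all 27025 genes with a window (light grey). The bars for NRF1 (14.3% against 4.13%) and YY1 (15.5% against 4.77%) stand above the bars of the genes with at least 10 counts, and the SP1 bar (47.6% against 67.2%) stands below.

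The complexes differed in their usual level. The median structural subunit lay at 51.5 TPM in complex I (36 subunits), 104 TPM in complex II (4), 45.03 TPM in complex III (9), 236 TPM in complex IV (11) and 161 TPM in complex V (15). In replicate 1 these medians were 71.6, 118, 63.8, 289 and 178 TPM, and in replicate 2 27.3, 90.4, 26.3, 122 and 168 TPM. Complexes IV and V lay above complexes I and III in both libraries. The order of IV and V changed between the libraries, and complex I lay over complex III in both by small margins. On the deposited span length complex III lay over complex I (50.9 against 33.0 TPM). The ratio of complex V to complex I was 3.13, from 2.49 in replicate 1 to 6.15 in replicate 2, and 1.43 on counts without length (CPM).

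Complex I was represented by 43 members, of which 36 were structural and 28 of these reached 10 TPM. Its highest subunits were Ndufb6, Ndufa1 and Ndufv2. Ndufb6, an accessory subunit of the membrane arm, lay at 431 TPM (replicate 1) and 533 TPM (replicate 2). Ndufa1, a small accessory subunit of the membrane arm, lay at 560 and 315 TPM. Ndufv2, an iron-sulfur core subunit of the NADH-binding module, lay at 397 and 334 TPM. Ndufb6 lay above Ndufv2 in both libraries, whereas the range of Ndufa1 overlapped both. On span length the highest 3 were instead Ndufc1 (280 TPM), Ndufa1 (260 TPM) and Ndufb4 (212 TPM), by the mean.

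The core subunits of complex I are known to be present in equal copy number in the enzyme, and their transcripts were not equal. Ndufs1, the largest iron-sulfur core subunit, lay at 178 and 164 TPM. Ndufs3, a core subunit of the ubiquinone module, lay at 113 and 84.9 TPM, with 35.8% of its 50-base words shared with pseudogene transcripts. Ndufv1, which binds NADH, lay at 21.2 and 15.0 TPM, beside its partner Ndufv2 20.2-fold higher by mean TPM (18.7-fold in replicate 1, 22.2-fold in replicate 2, 4.72-fold on the deposited span length). Ndufs7, next to the ubiquinone site, lay at 6.50 and 3.03 TPM, and Ndufs8, an iron-sulfur subunit, at 3.09 and 0.641 TPM. Ndufs1, Ndufs3, Ndufv1 and Ndufv2 were thus above every value of Ndufs7 and Ndufs8 in both libraries. The counts behind the low values were 48 and 18 for Ndufs7, and 30 and 5 for Ndufs8.

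The lowest complex I subunits were Ndufa11, Ndufs8 and Ndufb7. Ndufa11, an accessory subunit of the membrane arm, had 19 counts in replicate 1 and 8 in replicate 2 (2.31 and 1.21 TPM). Ndufb7, another accessory subunit of that arm, had 11 and 8 counts (2.35 and 2.12 TPM). The highest subunit of complex I lay 273-fold above the lowest by mean TPM, and 188-fold on the span length. The 7 assembly factors of complex I had a median of 91.5 TPM, with Ndufaf2 highest (240 and 236 TPM) and Ndufaf3 lowest (1.97 and 0.445 TPM). Ndufaf2 spans 106038 bases, over which any fragments in introns were counted too, although the study describes intronic reads as very few in these data. On span length Ndufaf2 lay at 7.93 TPM while Ndufaf4 was highest (340 TPM).

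**Figure D2:**
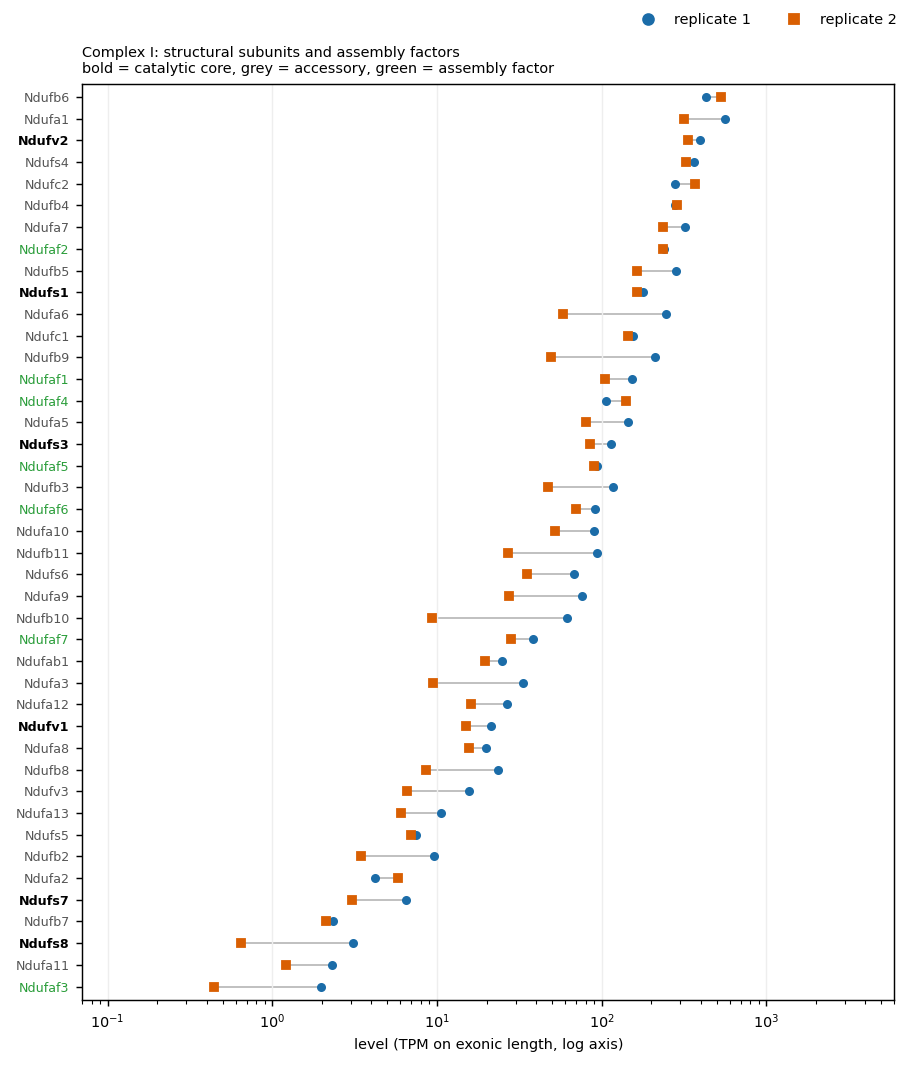
Level of complex I members in TPM on exonic length (log axis), with a blue circle for replicate 1 and an orange square for replicate 2, ordered by the mean. Levels run from 482 TPM for Ndufb6 to 1.21 TPM for Ndufaf3, and for most genes replicate 2 lies to the left of replicate 1.

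Complex II, which also works in the TCA cycle, is encoded wholly in the nucleus by 4 genes. Sdhd, a membrane anchor, lay at 304 TPM (replicate 1) and 294 TPM (replicate 2). Sdha, the catalytic flavoprotein, lay at 162 and 146 TPM. Sdhb, the iron-sulfur subunit, lay at 73.2 and 34.5 TPM, and Sdhc, the other anchor, at 28.0 and 23.0 TPM. No neighbours in this order overlapped between replicates, so the order Sdhd, Sdha, Sdhb, Sdhc held in both libraries on exonic length, with 11.8-fold from first to last. On span length Sdhc and Sdhb changed places (19.6 and 17.7 TPM by mean).

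In complex III, Uqcrb, a small accessory subunit, was the highest member of the whole module, with 10993 counts in replicate 1 and 10493 in replicate 2 (2734 and 3245 TPM). Of its 50-base words, 43.2% also occur in pseudogene transcripts, so its level is uncertain. Uqcrc2, a subunit of the matrix arm, lay at 385 and 226 TPM, and Uqcrfs1, the Rieske iron-sulfur protein, at 301 and 206 TPM. The partner of Uqcrc2, Uqcrc1, lay at 33.5 and 11.9 TPM. The lowest 3 were Uqcrq (14.1 and 6.25 TPM), Cyc1 (6.13 and 1.52 TPM) and Uqcr11 (5.38 and 2.23 TPM). On span length Uqcrq lay at 50.9 TPM, in the middle of the complex, and Uqcrc1 (14.8 TPM) took its place among the lowest. Cyc1 encodes cytochrome c1, a catalytic subunit, and had only 70 and 14 counts. Both catalytic nuclear subunits of this complex, Uqcrfs1 and Cyc1, thus lay far apart in both libraries.

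Cycs encodes somatic cytochrome c, the mobile carrier between complexes III and IV, and had 499 counts in replicate 1 and 619 in replicate 2 (21.3 and 32.8 TPM). Its level depends on the length used, with 27.0 TPM on the union of its exons and 113 TPM on the deposited span. Cyct, which encodes the testis form of cytochrome c and is not a member by symbol, had 777 and 774 counts (158 and 195 TPM) and shared 0% of its 50-base words with other transcripts, against 28.2% for Cycs (8.78% with pseudogenes), so that the level of Cycs is uncertain. By exonic length Cyct lay above Cycs in both libraries, and by span length below it (92.9 TPM by mean). Of the other 6 spermatid genes examined, 5 were at 0 counts in both libraries (Tnp1, Tnp2, Prm1, Prm2 and Acrv1) and Ldhc had 26 and 4 counts.

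In complex IV the catalytic core is mitochondrial, so the 11 structural genes here are all accessory. By the mean of both libraries all 11 reached 10 TPM, with Cox5b below it in replicate 2. The highest were Cox7b (18928 and 9669 counts, 2516 and 1598 TPM), Ndufa4 (1434 and 1039 TPM), which was long counted with complex I and is now known as a subunit of complex IV, and Cox5a (1043 and 506 TPM). Cox6c, another accessory subunit, came next by the mean (806 and 697 TPM) and lay above Cox5a in replicate 2. On span length Cox6c was also above Ndufa4 (693 against 566 TPM by mean), so that only the place of Cox7b at the top held in both libraries and on both lengths. The lowest were Cox6a1 (81.5 and 29.8 TPM), Cox4i1 (74.6 and 28.8 TPM) and Cox5b (18.4 and 4.68 TPM). Cox4i1 is the largest nuclear subunit and contacts the catalytic core, and its transcript lay 39.8-fold under that of Cox7b by mean TPM (33.7-fold in replicate 1, 55.6-fold in replicate 2). The 10 assembly factors had a median of 53.7 TPM. Among them Cox20, which helps to insert the copper subunit, lay highest (288 and 312 TPM) and Cox19 lowest (2.74 and 1.80 TPM).

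Complex V held the most counts, 72840 in replicate 1 and 39578 in replicate 2. Its 3 highest genes were Atp5f1, the b subunit of the stator (971 and 1089 TPM, with 23.2% of its words shared with pseudogenes), Atp5b, the catalytic β subunit (1452 and 514 TPM), and Atp5c1, the γ subunit of the rotor (1029 and 853 TPM). Atp5b was above Atp5c1 in replicate 1 and below it in replicate 2, so the 3 genes had no fixed order on exonic length. On span length the highest 3 were Atp5b (1367 TPM), Atp5g3 (829 TPM) and Atp5a1 (803 TPM), ahead of Atp5f1 (496 TPM) and Atp5c1 (362 TPM). Atp5a1, the α subunit that pairs with β in equal number, lay at 615 and 357 TPM. Atp5b exceeded Atp5a1 2.36-fold in replicate 1 and 1.44-fold in replicate 2. Against these, the small rotor subunits were low, with 27.5 and 27.1 TPM for Atp5e (ε) and 4.70 and 0.818 TPM for Atp5d (δ). Atp5d had 50 and 7 counts against 20917 and 5954 for Atp5b, a ratio by TPM of 309-fold in replicate 1 and 628-fold in replicate 2.

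The ring of c subunits in complex V is encoded by 3 genes with the same mature protein. Atp5g3 lay at 753 and 506 TPM and Atp5g2 at 184 and 168 TPM, where 87.4% of the words of Atp5g2 are shared with other transcripts, 57.5% with pseudogenes, so that its level is uncertain. Atp5g1 had 23 counts in replicate 1 and 13 in replicate 2 (0.623 and 0.438 TPM). The order Atp5g3, Atp5g2, Atp5g1 held in both libraries. The distance from first to last depends on length, since the annotated exons of Atp5g1 include a long isoform. Atp5g3 exceeded Atp5g1 1186-fold on exonic length, 178-fold on span length and 175-fold on CPM. The other low subunit was Atp5j2, the f subunit (30.1 and 14.1 TPM).

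**Figure D3:**
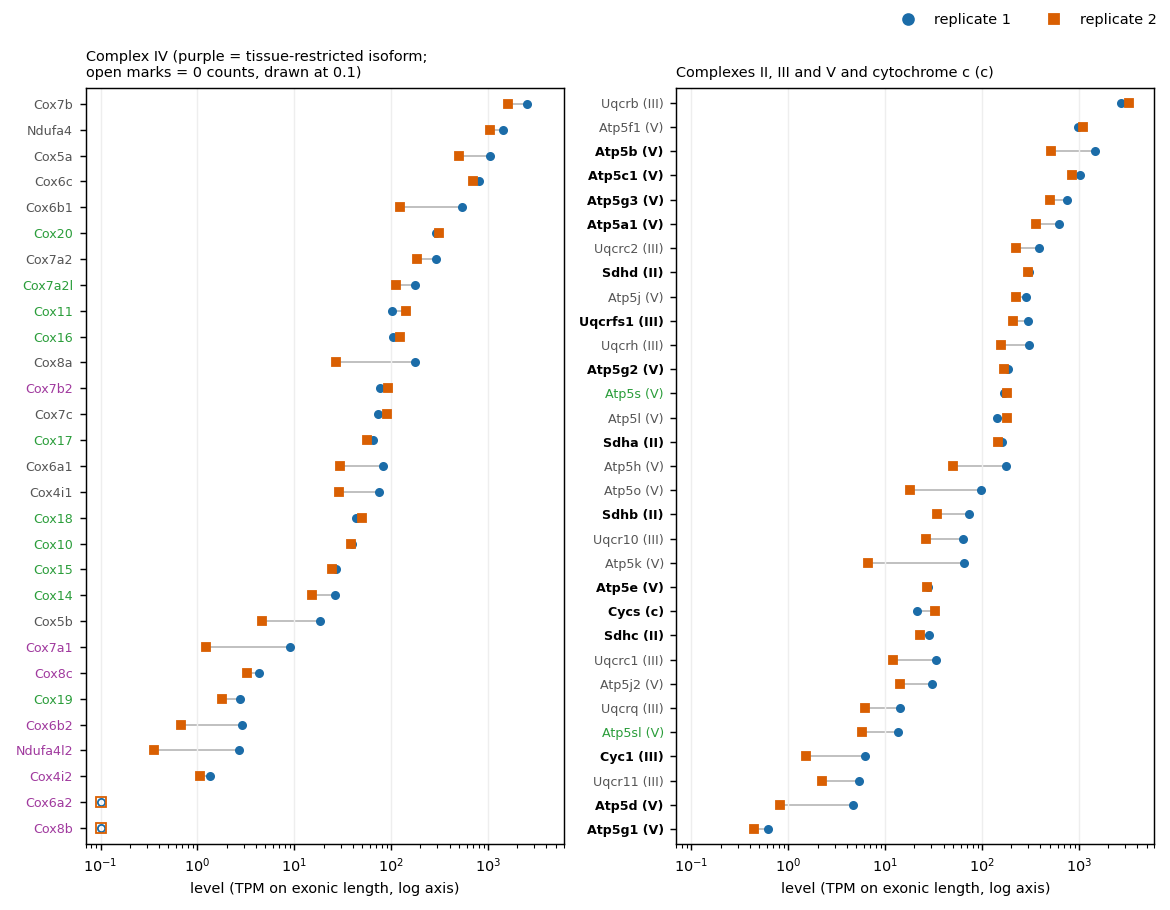
Level in TPM on exonic length (log axis) of the 29 complex IV members (left) and of the 31 members of complexes II, III and V and cytochrome c (right), with a blue circle for replicate 1 and an orange square for replicate 2. Cox6a2 and Cox8b, with 0 counts in both libraries, are drawn as open marks at 0.1, and Cox7b2 (77.1 and 91.6 TPM) stands among the general subunits while the other purple isoforms lie under 10 TPM.

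The 8 tissue-restricted isoforms replace a general subunit in muscle, lung, testis or hypoxic cells. In 7 of 8 pairs the isoform was under 10 TPM and the general gene above it in both libraries. Cox6a2 and Cox8b, the heart and muscle forms, had 0 counts in both libraries, which at these depths allows a level of up to 0.126 CPM (replicate 1) and 0.148 CPM (replicate 2), the worth of 3 counts. Cox7a1, also a muscle form, had 36 and 4 counts (8.95 and 1.24 TPM) beside Cox7a2 with 289 and 184 TPM. Cox4i2, the lung form known to respond to low oxygen, had 8 and 5 counts (1.35 and 1.05 TPM), and Ndufa4l2, known as a hypoxia-induced form, had 19 and 2 counts (2.71 and 0.354 TPM). The testis forms Cox6b2 (16 and 3 counts, 2.87 and 0.670 TPM) and Cox8c (15 and 9 counts, 4.36 and 3.25 TPM) were also low, beside Cox6b1 with 541 and 122 TPM and Cox8a with 174 and 26.8 TPM. The striated muscle list summed to 0.885 CPM and 0.543 CPM.

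Cox7b2, the testis form of Cox7b, was the exception. It had 314 counts in replicate 1 and 300 in replicate 2 (77.1 and 91.6 TPM), within the range of general subunits such as Cox7c (72.9 and 91.4 TPM). None of its 50-base words occurs in another transcript. Its gene spans 105384 bases on chromosome 5 (mm10, 71442822 to 71548205), and on that span its mean level was only 2.26 TPM. The table counts a fragment anywhere in that span, introns included. The study describes intronic reads as very few in these data as a whole. Which part of this gene its fragments came from is not known. Cox7b exceeded it 32.6-fold in replicate 1 and 17.5-fold in replicate 2.

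On the X chromosome lay 3 members, 2 of complex I and 1 of complex IV. In this line both X chromosomes are active before induction. Cox7b (mm10, chromosome X, 106015699 to 106022450) was the second highest member after Uqcrb. Ndufa1 (37187588 to 37191238) had 1765 and 798 counts. Ndufb11 (20615325 to 20617564), a membrane-arm subunit of complex I, had 636 and 148 counts (93.2 and 27.0 TPM). Together they supplied 10.5% of the member counts in replicate 1 and 8.69% in replicate 2. The other 100 members were autosomal, and members were found on 19 chromosomes in all.

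The replicates differed widely. The counts of each gene were compared by a two-sided exact binomial test against the ratio of the library totals, with Benjamini-Hochberg adjustment over all 14536 genes with at least 10 counts. This compares these 2 libraries, not conditions. Of the 101 members tested, 82 (81.2%) passed the adjusted threshold of 0.05, against a background of 60.8% of all genes tested. Lower in replicate 2 were 72 members (71.3%, background 45.7%), and higher were 10 (9.9%, background 15.1%). By sign alone, 86 of the 101 members (85.1%) and 70.2% of all genes were lower in replicate 2. The median log2 ratio of replicate 2 over replicate 1 was −0.72 over members and −0.31 over all genes. At least 4-fold lower were 16 of the members (15.8%) and 4.15% of all genes. Among the ES cell markers, 10 of 12 were called lower in replicate 2 and 1 was called higher, so the shift was not limited to these genes.

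The largest falls among called members were in Atp5k, Ndufb10, Cox7a1, Cox8a and Ndufa4l2. Atp5k, the e subunit of ATP synthase, had 180 counts in replicate 1 and 15 in replicate 2, a log2 ratio of −3.32 (adjusted p = 8.69e-31, exact binomial test). Ndufb10, a membrane-arm subunit of complex I, had 341 and 41 counts (−2.81). Cox8a, a small subunit of complex IV, had 721 and 89 counts (−2.78, adjusted p = 1.07e-101 in the exact binomial test). Cox7a1 and Ndufa4l2 had log2 ratios of −2.79 and −2.74, on the few counts given above. Of the X-linked members, Ndufb11 had a log2 ratio of −1.87, Ndufa1 of −0.92 and Cox7b of −0.74, and all 3 passed the test.

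The largest rises among called members were smaller. Cycs rose by 0.54 on the log2 scale (adjusted p = 2.36e-09, exact binomial test). Cox11, a copper chaperone of complex IV, had 1087 and 1211 counts (0.38), Ndufaf4, an assembly factor of complex I, 2905 and 3100 counts (0.32, but 0.04 and no longer called against the GC trend), and Ndufc2, an accessory subunit, 1591 and 1678 counts (0.30). Atp5l, the g subunit, had 583 and 592 counts (0.25), with 68.5% of its words shared with pseudogenes. Each gene named here had more counts in replicate 2. Each log2 ratio also stayed positive with TMM factors, DESeq2 size factors and the GC trend. The sizes depend on the scaling, and under the totals a gene with equal counts in both libraries is higher in replicate 2.

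Calls were also counted by class, and differences between classes were not tested. Over all genes tested, the shares called lower were 45.7% with the totals, 28.9% with TMM factors and 21.6% with the GC trend, and the shares called higher were 15.1%, 28.8% and 23%. Of the 54 accessory subunits, 41 were called lower and 6 higher (median log2 ratio −0.95), and with either TMM factors or the GC trend 37 were called lower and 7 higher. Of the 21 core subunits, 19 were called lower and 0 higher with the totals (median −0.59), against 14 and 1 with TMM factors and 11 and 4 with the GC trend, so the direction of several core genes depends on the scaling. The only core gene called higher with TMM was Sdhd. Of the 19 assembly factors, 9 were called lower and 3 higher with the totals (median −0.21), 7 each way with TMM factors (median 0.05), and 7 lower and 3 higher with the GC trend (median −0.13).

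By complex, the median over structural subunits was −0.89 in complex I, −0.30 in complex II, −1.26 in complex III, −1.13 in complex IV and −0.66 in complex V. After the GC trend it was −0.37, 0.02, −0.66, −0.75 and −0.21 in the same order. Complexes III and IV were thus lowest in replicate 2 on both scales, and complex II changed sign. Complex II has 4 genes and complex III has 9, and the differences between complexes were not tested.

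GC content and transcript length moved with this difference. The 10 members called higher in replicate 2 had a median GC content of 45.02% in their longest transcript (38.1 to 49.8%), and the 72 called lower had 51.1% (42.0 to 60.4%). Across the 79 members that had 50 counts or more per library, Spearman's rho of the log2 ratio with GC was −0.48, and across 9693 such genes of the whole table it was −0.67. Genes within a library are not independent, and these values are a description. When the expected ratio was taken from the GC trend of autosomal genes, 72 of the 101 members were called, 57 lower (56.4%) and 15 higher (14.9%). The backgrounds were 44.6% in all, 21.6% lower and 23% higher. Of these 72, 67 were also called with the totals, and 5 members went from called lower to called higher. With the TMM factors of edgeR, 77 members were called, 60 lower (59.4%) and 17 higher (16.8%), against 57.7%, 28.9% and 28.8%. TMM moved the ratio of every gene up by 0.26 on the log2 scale and left the members lower than all genes together (median −0.46 against −0.05). The median after the GC trend was −0.33 over members and −0.01 over all genes.

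Member transcripts are short, with a median exonic length of 1110 bases against 3322 for all genes tested. Among genes of at most 750 exonic bases, the median log2 ratio after the GC trend was −0.50 over 31 members and −0.39 over 281 genes in all. From 750 to 1500 bases it was −0.32 over 38 members and −0.24 over 1592 genes, and above 1500 bases −0.33 over 32 members and 0.01 over 12526 genes. Among all genes, members included, the short ones were also lower in replicate 2. The gap between members and all genes was widest above 1500 bases, a band without an upper limit. The part of GC content, length or RNA quality in the difference between the libraries was not tested.

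**Figure D4:**
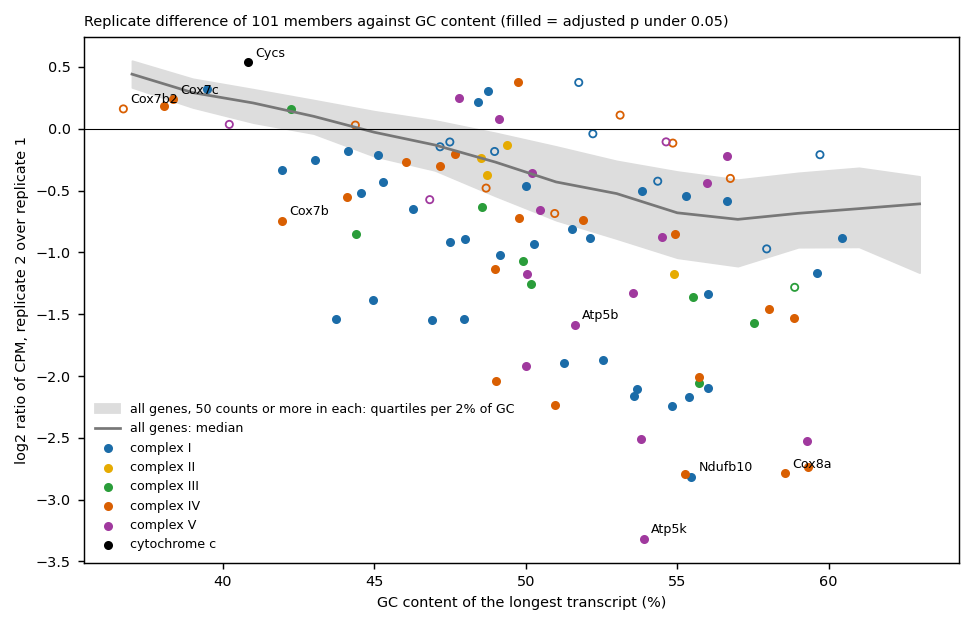
Log2 ratio of CPM, replicate 2 over replicate 1, against the GC content (%) of the longest transcript for the 101 members tested, coloured by complex and filled where the exact binomial test passed. The grey line and band are the median and quartiles of all genes that had 50 counts or more per library, and most members lie under the line, down to −3.32 for Atp5k.

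Level also went with GC content. Across the 76 structural subunits, Spearman's rho of TPM with GC was −0.42, given as a description. Subunits with at most 45% GC had a median of 306 TPM (11 genes), those from 45 to 50% 166 TPM (22), those from 50 to 55% 58.9 TPM (24) and those above 55% 22.7 TPM (19). Over all genes with at least 10 counts the medians in these bands were 46.1, 22.6, 9.28 and 2.94 TPM. The structural subunits were thus 6.64, 7.34, 6.34 and 7.71 times the median of all genes in the 4 bands. The low core genes Ndufs7 (59.6% GC), Atp5d (59.3%), Cyc1 (55.7%) and Ndufs8 (54.8%) lay at the high end of GC, and the high genes Cox7b (42.0%), Uqcrb (42.2%) and Ndufa4 (44.1%) at the low end. Other members went against this order. Atp5b (51.6% GC), Atp5a1 (54.5%), Ndufa7 (55.3%, 323 and 236 TPM), Atp5j (56.0%, 284 and 223 TPM) and Atp5g2 (56.6%) were high. Atp5g1, the lowest core gene on exonic length, had 46.8% GC, and Ndufb2, with 43.7%, lay at 9.55 and 3.48 TPM. The longest transcripts of Atp5g1 and Ndufb2 have 4715 and 4371 bases, which enter both the GC value and the exonic length. On span length they lay at 4.65 and 21.3 TPM by mean, Atp5g1 then above Ndufs7 (3.29 TPM) and Ndufs8 (3.15 TPM). Whether the low levels of GC-rich subunits belong to the cells or to the libraries cannot be told apart with 1 group.

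**Figure D5:**
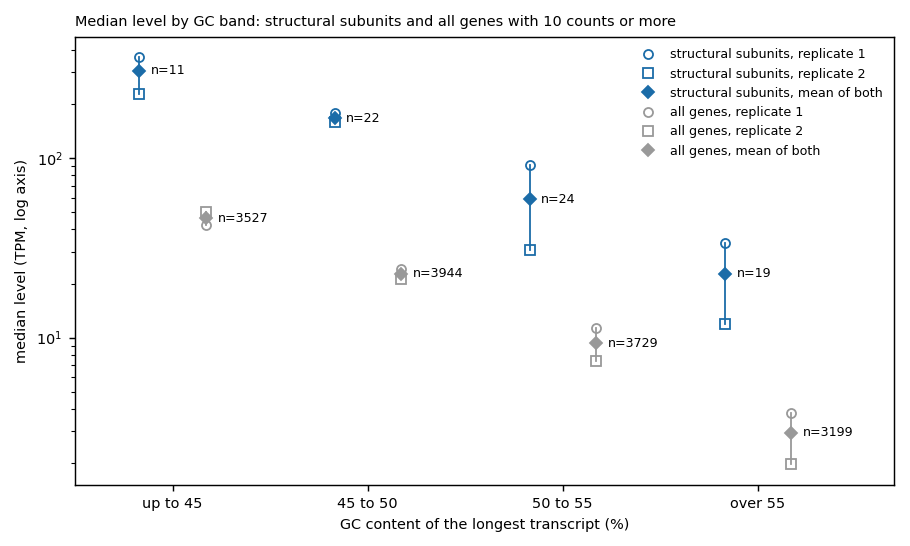
Median level in TPM (log axis) by GC content of the longest transcript (%), for the structural subunits (blue) and all genes with at least 10 counts (grey), with a circle for replicate 1, a square for replicate 2 and a diamond for the median of the mean of both. The structural subunits lie above all genes in each band, and both fall from low to high GC, from 306 to 22.7 TPM and from 46.1 to 2.94 TPM.

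The remaining genes of the pathway were taken from lists. Of 29 assembly factors outside the symbol rule, 26 were in the table and 18 reached 10 TPM, with a median of 21.6 TPM. Coa6 (140 and 171 TPM) and Sco1 (106 and 88.7 TPM), both needed for copper delivery to complex IV, were highest on exonic length, and Pet117 and Ecsit had 0 counts. Of the 23 with at least 10 counts, 15 were called lower in replicate 2 and 1 higher (Coa6), against 45.7% lower and 15.1% higher over all genes tested, with a median log2 ratio of −0.25.

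A list of nuclear regulators of mitochondrial genes was read next, and whether they act on the members in these cells was not tested. All 16 of them in the table had counts, and 10 reached 10 TPM. Gabpa, the DNA-binding part of GABP, lay at 329 and 407 TPM and Yy1 at 274 and 368 TPM. The lowest were Esrrg, a receptor of the ERR family (2 and 8 counts), and Ppargc1a, the coactivator known for inducing mitochondrial genes in muscle and brown fat (4 and 1 counts). Of the 15 tested, 9 were called lower in replicate 2 and 3 higher, among them Gabpa and Yy1, against the same backgrounds.

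All 17 genes of pyruvate dehydrogenase and the TCA cycle, which supply NADH and succinate to the chain, reached 10 TPM by the mean (Mdh2 was below it in replicate 2), with a median of 134 TPM. The highest were Pdha1, the X-linked E1 subunit of pyruvate dehydrogenase (693 and 719 TPM), and Idh3a, the catalytic subunit of isocitrate dehydrogenase (339 and 387 TPM). The lowest were Ogdh, the E1 subunit of oxoglutarate dehydrogenase (34.7 and 25.8 TPM), and Mdh2, mitochondrial malate dehydrogenase (28.0 and 8.52 TPM). In replicate 2, 12 of the 17 were called lower and 3 higher (backgrounds 45.7% and 15.1%, members 71.3% and 9.9%). Their median log2 ratio was −0.28, nearer to that of all genes than to that of the members. Of 6 further respiratory genes that the symbol rule misses, Atpif1, the inhibitor of ATP synthase, was highest (883 and 174 TPM) and Higd2a, a complex IV assembly protein, lowest (7.39 and 1.28 TPM).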

How the data were processed

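mRNA was sequenced from 2 replicates of 1 group. The count table was deposited by the authors: featureCounts, by its header version 1.5.2, assigned whole fragments to transcript spans on mm10, reverse-stranded, introns included. The submitters' processing notes also name STAR 2.4.2a and Bowtie2 2.3.2, and how the mRNA reads were aligned is not given in the sources used here. Columns were matched to samples by name, although a letter b in the descriptions of the samples is absent from the column names.

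TPM was computed on exonic length (union of exons, GENCODE M21 basic, GRCm38), matched by symbol for 21258 genes, by an older symbol for 894 and unmatched for 404. The 404 had no TPM. Log2 ratios were taken on CPM after adding 0.5 counts. The exact binomial test (scipy 1.17.1) was run over genes with at least 10 counts and was tested on simulated data. Alternatives used the TMM factors of edgeR 4.0.16, the size factors of DESeq2 1.42.0 (R 4.3.3), and a cubic GC trend fitted to 9243 autosomal genes that had 50 counts or more per library. Shared words are the 50-base words of the longest transcript found in transcripts of other genes. A count of 0 allows up to 3 counts.

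Named were, per complex, the 3 highest and 3 lowest structural subunits by mean TPM, core subunits (values of 1 are not reported here), X-linked members, isoforms with their counterparts, and the 5 largest rises and falls between replicates. Other members are named where a contrast needed them, after their values were seen. The members and lists were chosen with earlier results of these data known.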

Additional observations from a re-analysis of the deposited data

How the results depend on the processing

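Of 93 recomputed values for 19 results, 86 kept their side of the threshold, or moved by less than 1 SD between replicates (counts by less than 1.5 times, median log2 ratios by less than 0.1). Some of the 86 were fixed in advance. Changing the filter on low counts could not move the log2 ratio of a single gene (−3.32 for Atp5k throughout). It could alter only the adjusted p-value of that gene. The share of counts is a mean of 2 replicates, so leaving out either moves it by less than their SD (0.602% or 0.859% against 0.731%). That SD is wide, so some large moves pass it: the structural median ran from 41.3 TPM without replicate 1 to 95.2 TPM without replicate 2, and the ratio of complex V to complex I was 1.43 on CPM against 3.13. The others follow. The median level of structural subunits, 76.4 TPM, was 26.3 on CPM, which has another unit. The median log2 ratio over members, −0.72, was −0.46 with TMM factors, −0.41 with DESeq2 size factors, −0.33 with the GC trend removed and −0.59 over members that had 50 counts or more per library. The ratio of complex V to complex I ran from 2.49 to 6.15 when either replicate was left out, the higher value without replicate 1. The rise of Ndufaf4 fell to 0.04 and lost its call against the GC trend. Of the 82 called members, 71, 69 and 67 were also called with TMM factors, DESeq2 size factors and the GC trend, in either direction. Of the members called lower with the totals, 1 was called higher with TMM factors and 5 with the GC trend. No paired analysis was possible because there is 1 group. Low members such as Ndufs8, Ndufb7 and Atp5d rest on few counts.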
